A study of Homo sapiens with 6 samples.

Results

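Axon guidance cues and their receptors were followed through 68 genes: every semaphorin (SEMA), plexin (PLXN), neuropilin (NRP), ephrin (EFN), Eph receptor (EPH), Slit, Robo, netrin (NTN1, NTN3 to NTN5) and UNC5 symbol among the 60835 distinct symbols of the deposited read counts, without antisense or pseudogene entries. The genes were chosen by name. PANC-1, the cells used, is an established human pancreatic carcinoma line, and the line here was a SMAD4 knockout. They had then been transfected with wild-type SMAD4 (WT) or with SMAD4 carrying the R272K substitution of an arginine by a lysine, with 3 libraries each on day 3. Both groups shared the knockout, and knockout cells without introduced SMAD4 were not analysed here. Neither the construct's promoter nor the number of knockout clones is given in the sources used here. Separate cultures are not stated either, so the p-values reflect spread among these 6 libraries alone, and that spread may be technical.

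Guidance molecules were named for steering growing axons, and the same proteins act in epithelia, vessels and tumours, where they control cell adhesion, repulsion and movement. Semaphorins signal through plexins, and the secreted class 3 semaphorins mostly need a neuropilin as co-receptor. Ephrins sit on one cell and bind Eph receptor tyrosine kinases on its neighbour, so both cells can receive a signal. Slits bind Robo receptors, and netrins bind DCC, neogenin and the UNC5 receptors. Genes of the Slit and Robo pathway are recurrently altered in pancreatic cancer.

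Total counts per library lay between 14776148 and 17706201. SMAD4 transcript averaged 88.7 ± 5.13 CPM (counts relative to TMM-adjusted library size) with WT and 43.3 ± 2.56 CPM in the R272K group (SD, n = 3 per group), so the amount of SMAD4 transcript and the substitution cannot be told apart in any comparison given here. PRMT1, the methyltransferase that the series addresses, stood at 174.5 ± 19.8 and 174.7 ± 6.78 CPM. On the first principal component WT replicates 1 to 3 lay at -31.3, -9.56 and -0.13, and the R272K libraries at 15.6, 11.3 and 14.1. The groups were thus separate on it, and WT replicate 1 stood apart from the other WT libraries. Longer genes were relatively lower in WT replicate 1 than in the other WT libraries (Spearman's rho of the log2 ratio with length -0.41, taken across genes, not independent replicates). The tested guidance genes were long, with a median relative length of 2.74 against 1.76 for all genes tested. Of the epithelial markers, KRT8, KRT18, KRT19 and SOX9 averaged 2420, 1390, 315 and 182 TPM (a level per transcript length) with WT SMAD4. MUC1, KRT7, EPCAM and CDH1 were lower, at 39.2, 7.81, 7.33 and 1.68 TPM. KRT19, KRT7 and MUC1 had log2 fold changes below 0 (-0.10, -0.13 and -0.11), and the other epithelial markers had values above 0. The 8 epithelial markers summed to 4170 to 4650 TPM in the WT libraries and 4976 to 5451 TPM in the R272K libraries. Most of each sum was KRT8 and KRT18, and 1 of 8 was called higher. This was CDH1, at 1.68 and 4.23 TPM on average (log2 fold change 1.33, edgeR adjusted p = 0.00174). The 6 fibroblast markers summed to 6.18 to 7.92 and 8.82 to 10.1 TPM. Only COL3A1 (5.74 and 8.17 TPM on average) and THY1 (0.692 and 0.49 TPM) of them were tested, and neither was called. Endothelial markers summed to at most 0.698 TPM in any library, and leukocyte markers to 4.25 to 6.57 and 4.42 to 6.87 TPM, with 0 of 1 tested called. The 8 neuronal markers summed to 29.9 to 37.5 TPM with WT and 36.8 to 39.0 TPM with R272K SMAD4, most of it SYT1 and SYP, and 0 of 4 tested were called, while NEFL had 0 counts. The 6 glial markers summed to 48.5 to 62.5 and 52.6 to 57.6 TPM, most of it MBP, with 0 of 1 tested called and S100B at 0 counts. The part of these markers in the results was not tested. In bulk RNA, fewer cells that express a gene and less of its RNA per cell cannot be told apart.

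Of the 68 guidance genes, 25 had a mean level of at least 10 TPM, 16 lay between 1 and 10 TPM and 27 were below 1 TPM. SEMA4B, a membrane-bound semaphorin, was the most abundant, at 571 ± 29.4 TPM with WT and 594 ± 49.2 TPM in the R272K group (SD, n = 3 per group, as for all values that follow). EPHA2, an Eph receptor often abundant in carcinomas, followed with 409 ± 33.8 and 398 ± 29.1 TPM. NTN4, a secreted netrin of basement membranes, had 209 ± 24.9 and 204 ± 1.97 TPM, and SEMA3C, a secreted semaphorin, 187 ± 32.1 and 217 ± 1.34 TPM. EPHB6, an Eph receptor without kinase activity, had 146 ± 6.26 and 137 ± 9.35 TPM.

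**Figure D1:**
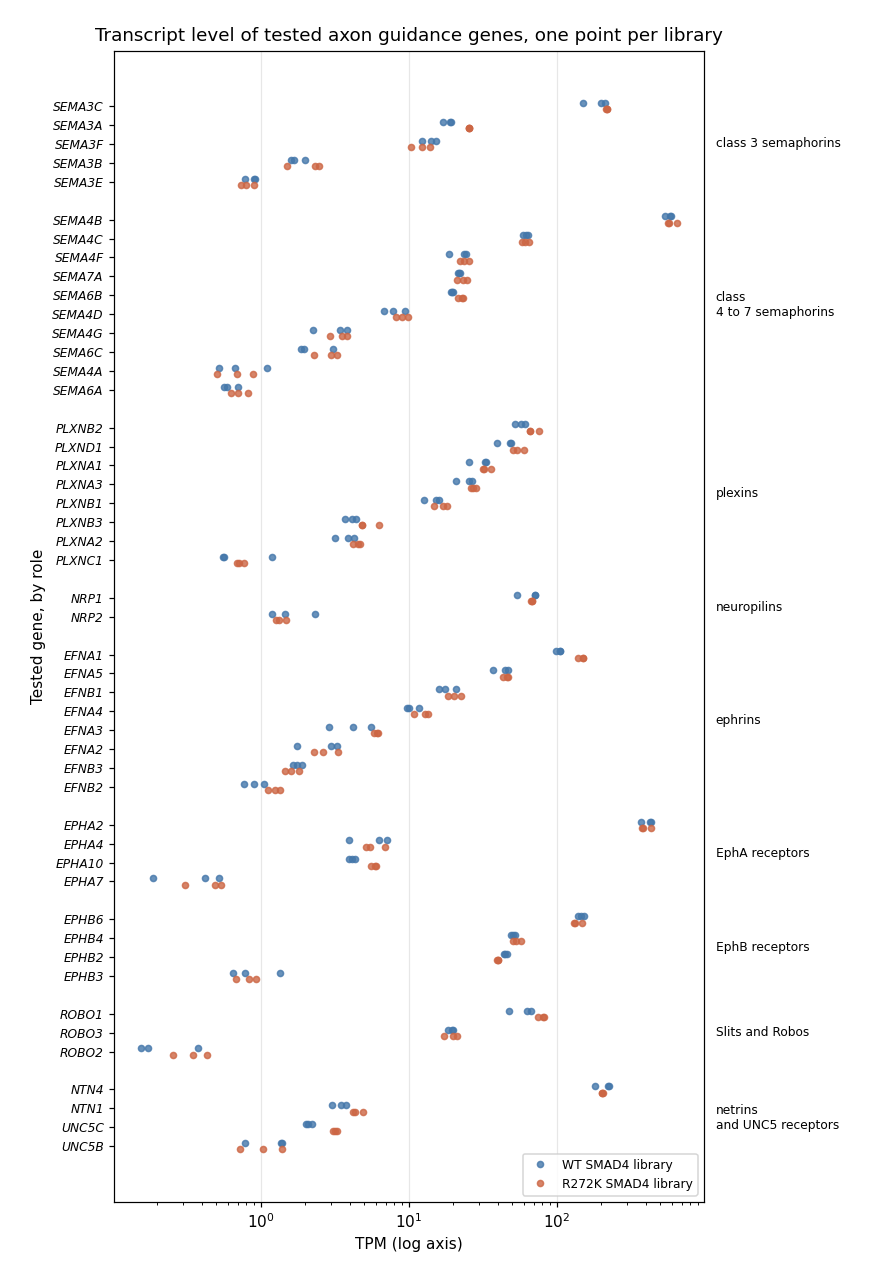
TPM of the 48 tested guidance genes in each library (log axis), grouped by role and ordered by mean level within a role; blue points are the 3 WT libraries and orange points the 3 R272K libraries. SEMA4B and EPHA2 stand highest, and the orange points of SEMA3A, EFNA1, ROBO1 and UNC5C lie to the right of all their blue points.

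The edgeR expression filter passed 48 of the 68 genes. Those not tested had between 3 and 57 counts in all 6 libraries together. They were the semaphorins SEMA3D, SEMA3G, SEMA5A, SEMA5B and SEMA6D, the plexin PLXNA4, the Eph receptors EPHA1, EPHA3, EPHA5, EPHA6, EPHA8 and EPHB1, all 3 Slits, ROBO4, NTN3, NTN5, UNC5A and UNC5D. A fit without the filter held all 68 genes and called EFNA1, PLXNB2, ROBO1, SEMA3A and UNC5C higher, but none of these 20. Among all 36623 genes in that fit, 0.62% were called higher. At such low counts a small difference in the 20 genes could not be seen.

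With R272K SMAD4, 4 of the 48 tested genes rose and 0 fell; 44 were not called. The genes that rose were SEMA3A, EFNA1, ROBO1 and UNC5C, a secreted ligand, a cell-surface ligand and a pair of receptors from separate guidance systems. Each rose by 1.33-fold to 1.47-fold. Across all 15911 genes tested, 0.685% were called higher and 0.528% lower (edgeR quasi-likelihood test, two-sided, adjusted p below 0.05). For the lower direction, 1 of the 48 had an unadjusted p under 0.05 (7.09% of all genes), and DESeq2 and limma-voom likewise called 0 (0.817% and 0.515% of all genes with them). For the higher direction, 12 had an unadjusted p under 0.05 (7.18% of all genes). The median log2 fold change of the 48 was 0.12, against -0.00 for all genes tested, and 33 of the 48 were above 0, against 7906 of 15911. Without WT replicate 1 the median of the guidance genes was 0.084, with 32 of 49 above 0. With each library's length trend removed it was 0.081, with 33 of 48 above 0.

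SEMA3A, a secreted repellent of axons and endothelial cells, is on chromosome 7 (83955777 to 84492724, GRCh38, in the deposited coordinates; ENSG00000075213). It had 47.6, 49.3 and 48.0 CPM in WT replicates 1 to 3 and 66.6, 66.4 and 64.9 CPM in R272K replicates 1 to 3. The libraries of each group lay close together and the groups were far apart. The log2 fold change was 0.45 (SE 0.066, edgeR adjusted p = 0.0038). SEMA3A was the only 1 of the 4 that stayed called whichever library was left out, with adjusted p between 6.29e-06 and 0.04999.

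EFNA1, a glycolipid-anchored ephrin and a ligand of EPHA2, lies on chromosome 1 (155127876 to 155134899; ENSG00000169242). The gene had 55.9, 51.7 and 47.6 CPM in the WT libraries and 74.4, 74.3 and 67.7 CPM in the R272K libraries. The lowest R272K library was above the highest WT library. The log2 fold change was 0.48 (SE 0.078, edgeR adjusted p = 0.00782). The call was lost without WT replicate 2 (adjusted p = 0.0549) and without R272K replicates 1 or 2 (0.0889 and 0.089).

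ROBO1, a transmembrane receptor for Slits, is on chromosome 3 (78597239 to 79767998; ENSG00000169855). It stood at 122, 150 and 154 CPM with WT and 194, 180 and 192 CPM with R272K SMAD4. The groups did not overlap, and the lowest value by far was that of WT replicate 1. The log2 fold change was 0.41 (SE 0.084, edgeR adjusted p = 0.0339) on all libraries and 0.31 (SE 0.046, adjusted p = 2.45e-05) without WT replicate 1. The call was lost without WT replicate 2 (adjusted p = 0.0887) or without R272K replicates 1, 2 or 3 (0.214, 0.124 and 0.226).

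UNC5C, a netrin receptor that mediates repulsion and can trigger apoptosis when no netrin is bound, is on chromosome 4 (95162504 to 95549206; ENSG00000182168). It had 6.73, 6.42 and 6.68 CPM in the WT libraries and 9.71, 10.1 and 9.32 CPM in the R272K libraries. This was the largest log2 fold change of the 4, 0.55 (SE 0.119, edgeR adjusted p = 0.0396), at the lowest level, 95 to 152 counts per library. Its groups did not overlap. Without WT replicate 1 the call stayed (adjusted p = 0.0138), and without any other single library it was lost (0.0592 to 0.224). An antisense gene, UNC5C-AS1, held 21 counts in all libraries against 758 for UNC5C, and without strand the reads of such a pair cannot be told apart.

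**Figure D2:**
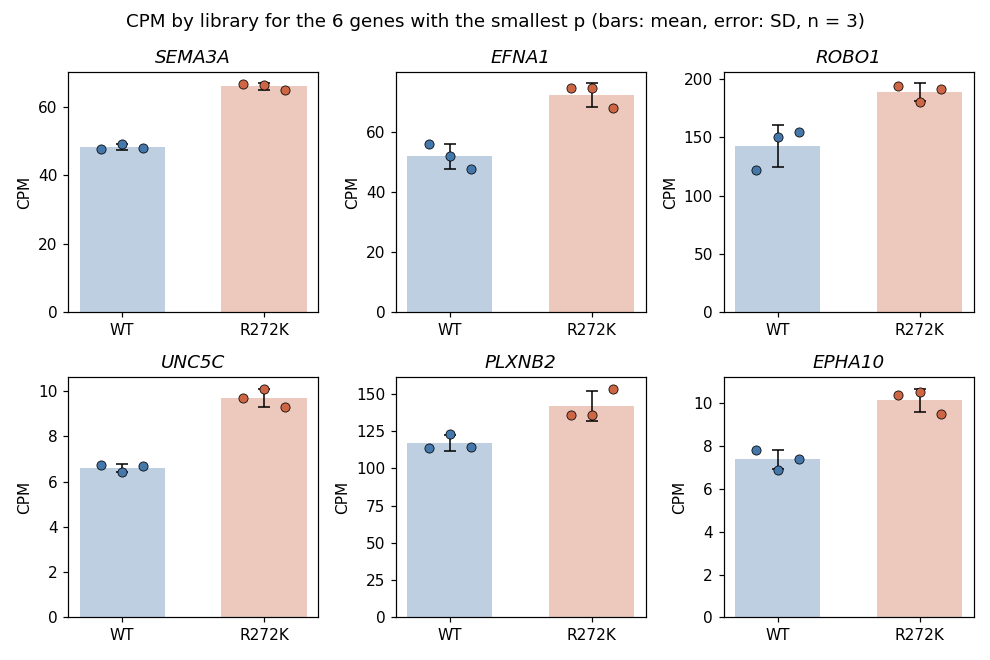
CPM by library for the 6 guidance genes with the smallest p; bars are group means, error bars the SD (n = 3) and points single libraries. In all 6 panels the lowest R272K library lies above the highest WT library; SEMA3A, EFNA1, ROBO1 and UNC5C were called, PLXNB2 and EPHA10 were not.

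SMAD proteins bind DNA at the short motifs CAGAC and GGCGC, so the bases before annotated starts of a called gene are shown for ROBO1, which has a pair of starts in the RefSeq promoter table (GRCh38.p14); that table held 58 of the 68 genes. Each run is the 250 bases before a transcript start, 5′ to 3′ on the minus strand, and capitals mark GGCGC on either strand. The first ends at the gene's deposited limit, and the second lies within the gene, before an internal start. Neither holds a base of an exon annotated in GENCODE release 29.
ROBO1, start at 79767998 (chr3:79767999-79768248): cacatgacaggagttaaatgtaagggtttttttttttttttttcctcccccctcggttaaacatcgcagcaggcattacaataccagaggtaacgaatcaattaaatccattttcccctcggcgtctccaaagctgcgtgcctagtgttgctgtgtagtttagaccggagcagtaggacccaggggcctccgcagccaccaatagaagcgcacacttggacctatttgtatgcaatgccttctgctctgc
ROBO1, start at 79019459 (chr3:79019460-79019709): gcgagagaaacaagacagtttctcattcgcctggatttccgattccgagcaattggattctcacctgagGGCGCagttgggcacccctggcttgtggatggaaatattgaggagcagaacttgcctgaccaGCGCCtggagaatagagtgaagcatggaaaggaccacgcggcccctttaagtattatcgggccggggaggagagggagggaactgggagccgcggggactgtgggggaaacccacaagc
GGCGC occurred 0 times before the outer start and 2 times before the inner one, and CAGAC 0 times before either. For EFNA1 and UNC5C, all 250 bases of the table's window lie in exons of GENCODE release 29, so their letters are not shown. CAGAC occurred 1 time in each of these windows, on either strand. GGCGC occurred 3 times for EFNA1 and 2 times for UNC5C. SEMA3A had no entry among these promoters. Among all 35116 promoter entries of the table, 38.0% held CAGAC in the same window, and 23 of 66 entries for tested guidance genes did. For GGCGC these were 44.5% and 46 of 66. As shares of the 66 entries these are 34.85% for CAGAC and 69.7% for GGCGC. The motifs GTCTAGAC and TGANTCA (N being any base) were searched as well. GTCTAGAC occurred in 0.182% of all entries and in 0 of the 66. TGANTCA occurred in 6.57% of all entries and in 1 of the 66. The 66 entries came from 40 tested genes, so a gene with several starts counted more than once. The windows were not matched for GC content, and the differences were not tested for any of these motifs. A match describes letters in these windows and is not a binding site.

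Among secreted class 3 semaphorins, 5 of 7 were tested, 1 rose and 4 were not called. SEMA3C, the most abundant, stood at 251, 306 and 319 CPM with WT and 338, 337 and 334 CPM with R272K SMAD4. Every R272K library was higher, but WT replicate 1 was far below the other WT libraries, and the log2 fold change of 0.20 (SE 0.080) was not called (edgeR adjusted p = 0.27). Without WT replicate 1 it was 0.10 (adjusted p = 0.0998). SEMA3F, a repellent that signals mainly through NRP2, had -0.19 as log2 fold change (SE 0.116, adjusted p = 0.491), and its groups overlapped. SEMA3A's neighbours on chromosome 7 within 1 Mb were SEMA3E, with a log2 fold change of -0.10, and SEMA3D, which was not tested. The counts of SEMA3E, 26 to 34 per library, limit what could be seen there.

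The membrane-bound and anchored semaphorins of classes 4 to 7 gave 0 calls in either direction among 10 tested of 13. SEMA4B had a log2 fold change of 0.04 (SE 0.065), with groups that overlapped. SEMA6B, a ligand of A-type plexins, had 26.7, 24.9 and 24.9 CPM with WT and 27.8, 29.5 and 29.2 CPM with R272K SMAD4, with 0.18 as log2 fold change (SE 0.080, adjusted p = 0.343). It was the only member of these classes whose groups did not overlap. SEMA6C (0.31, SE 0.205, adjusted p = 0.526) and SEMA4D, a ligand of PLXNB1 (0.16, SE 0.113, adjusted p = 0.567), had overlapping groups.

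Plexins, the receptors of semaphorins, gave 0 calls among 8 tested of 9, with 7 log2 fold changes above 0 and a median of 0.20. PLXNB2, a B-type plexin that binds class 4 semaphorins, stood at 114, 123 and 114 CPM with WT and 136, 136 and 153 CPM with R272K SMAD4. Its groups did not overlap, and its log2 fold change of 0.28 (SE 0.070) had an adjusted p of 0.0861. DESeq2 called it higher (adjusted p = 0.0471), as did edgeR without WT replicate 1 (0.0031), without a filter (0.0268) and with each library's length trend removed (0.0322). PLXND1, a receptor of SEMA3E, had 93.5, 106 and 105 CPM with WT and 111, 119 and 131 CPM with R272K SMAD4 (0.25, SE 0.077, adjusted p = 0.16). It was called only without WT replicate 1 (0.19, adjusted p = 0.0393). PLXNB3, which binds SEMA5A, had 0.37 as log2 fold change (SE 0.135, adjusted p = 0.226), or 0.225 without R272K replicate 2. It had 890 counts in all, beside 233 of its antisense gene and 281 of SRPK3, which overlaps it on the same strand. On the opposite strand, LAGE3 had 5514 counts against 8351 for PLXNA3, and CEP83 had 2986 against 166 for PLXNC1. The counting strand is not given. Among all tested guidance genes, 14 overlap an opposite-strand gene with at least 10 counts. For 3 of them that gene had more counts than the guidance gene. Plexin transcripts are long (median relative length 3.74). The plexin median was 0.14 without WT replicate 1 and 0.14 with the length trend removed, and 7 of 8 were above 0 in both.

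The neuropilins, co-receptors of class 3 semaphorins and of VEGF, gave 0 calls among 2 tested in either direction, and both pairs of groups overlapped. NRP1 had 108, 132 and 130 CPM with WT and 128, 127 and 126 CPM with R272K SMAD4, a log2 fold change of 0.04 (SE 0.077), or -0.04 without WT replicate 1. NRP2, far lower at 1.65 ± 0.594 and 1.37 ± 0.117 TPM, had -0.29 (SE 0.236, adjusted p = 0.623). The NRP2 value was -0.0179 without WT replicate 3 and -0.476 without WT replicate 2. The TPM ratio of SEMA3A to its co-receptor NRP1, a pair chosen after its values were seen, was 0.319, 0.271 and 0.268 in the WT libraries and 0.377, 0.38 and 0.372 in the R272K libraries.

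All 8 ephrins were tested; 1 rose, 0 fell and 7 were not called. Their summed level was 185 ± 4.56 TPM with WT and 236 ± 2.28 TPM with R272K SMAD4, and EFNA1 made up 103 ± 3.53 and 146 ± 6.34 TPM of it. EFNA1, EFNA3 and EFNA4, all anchored A-type ephrins, lie in a row on chromosome 1, with 9.28 kb between EFNA4 and EFNA3 and 40.3 kb between EFNA3 and EFNA1. EFNA3 had 3.48, 2.43 and 1.64 CPM with WT and 3.54, 3.39 and 3.52 CPM with R272K SMAD4. The R272K values lay together, and WT replicate 1 was among them, so the groups overlapped. Its log2 fold change was 0.45 (SE 0.245, adjusted p = 0.43), with 0.776 (adjusted p = 0.0744) without WT replicate 1 and 0.221 without WT replicate 3. EFNA4 had 0.22 (SE 0.162, adjusted p = 0.567). The read-through gene EFNA4-EFNA3, which overlaps both, had 0 counts. EFNB2, a transmembrane ephrin and ligand of EPHB4, had 1.31, 1.42 and 1.64 CPM with WT and 2.17, 1.80 and 1.95 CPM with R272K SMAD4 (0.44, SE 0.251, adjusted p = 0.456). These are 21 to 33 counts per library.

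Eph receptors, which bind the ephrins, gave 0 calls among 8 tested of 14, with 4 log2 fold changes above 0 and 4 below. EPHA2 had 498, 539 and 517 CPM with WT and 474, 487 and 533 CPM with R272K SMAD4. The groups overlapped, with -0.06 as log2 fold change (SE 0.064, adjusted p = 0.737), while its ligand EFNA1 rose. The TPM ratio of EFNA1 to EPHA2, also chosen after its values were seen, was 0.285, 0.244 and 0.234 in the WT libraries and 0.399, 0.388 and 0.323 in the R272K libraries. EPHA10, a receptor that lacks kinase activity, stood at 7.81, 6.89 and 7.40 CPM with WT and 10.4, 10.5 and 9.51 CPM with R272K SMAD4. Its groups did not overlap, and its log2 fold change of 0.46 (SE 0.120) had an adjusted p of 0.0962, or 0.0293 without WT replicate 1. One of the many genes that share the symbol Y_RNA overlaps EPHA10 on the same strand, and the counts do not separate that copy from the others.

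EPHB2, a kinase receptor of B-type ephrins, was the only tested guidance gene that was lower in every R272K library than in every WT library. It had 167, 157 and 157 CPM with WT and 142, 143 and 137 CPM with R272K SMAD4, with -0.19 as log2 fold change (SE 0.060, adjusted p = 0.164). Without WT replicate 1 it was called lower (-0.16, adjusted p = 0.0293). EPHB6 (-0.11, SE 0.064, adjusted p = 0.487) and EPHB4 (0.06, SE 0.068, adjusted p = 0.733) had overlapping groups. EPHA7, at 7 to 25 counts per library, had 0.19 (SE 0.393).

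Of 7 Slits and Robos, 3 were tested; ROBO1 rose and 2 were not called. The ligands SLIT1, SLIT2 and SLIT3 had 37, 12 and 15 counts in all 6 libraries together, against 15320 for ROBO1. ROBO3, an unusual Robo that mammalian Slits bind weakly, had 31.1, 28.2 and 25.9 CPM with WT and 28.9, 25.4 and 30.5 CPM with R272K SMAD4, a log2 fold change of -0.01 (SE 0.096) whose sign turned with upper-quartile scaling. ROBO2, which lies 947 kb from ROBO1 on chromosome 3, had 7 to 20 counts per library and 0.55 as log2 fold change (SE 0.397, adjusted p = 0.567). The same-strand pseudogene CAP1P1 within ROBO2 had 91 counts against 82 for ROBO2, and a Y_RNA copy lies on the opposite strand, so the ROBO2 value is uncertain.

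Of 8 netrins and UNC5 receptors, 4 were tested; UNC5C rose and 3 were not called. NTN4 had 223, 257 and 249 CPM with WT and 238, 235 and 231 CPM with R272K SMAD4, with overlapping groups (-0.05, SE 0.066, adjusted p = 0.778). Without WT replicate 1 its log2 fold change was -0.109 (adjusted p = 0.129), and without WT replicate 2 it was -0.0104. NTN1, the classical attractant netrin and a ligand of UNC5C, had 6.22, 7.17 and 6.49 CPM with WT and 8.07, 9.38 and 8.21 CPM with R272K SMAD4. Every R272K library was above every WT library, but the log2 fold change of 0.37 (SE 0.130) was not called (adjusted p = 0.213). The receptor DCC, which is not among the 68 genes, had 8 counts in all.

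In total the groups did not overlap for 14 of the 48 tested genes, 13 with R272K higher and 1 with R272K lower. Over all genes tested these shares were 10.9% and 10.4%. The 13 were SEMA3A, SEMA3C, SEMA6B, PLXNA2, PLXNB2, PLXNB3, PLXND1, EFNA1, EFNB2, EPHA10, ROBO1, NTN1 and UNC5C. Of these, 6 encode ligands and 7 encode receptors. Both kinds were common among the 48 tested, with 15 semaphorins and 8 ephrins beside 8 plexins, 8 Eph receptors, 2 neuropilins and 3 Robos. The remaining 4 were netrins and UNC5 receptors. The split was not tested.

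**Figure D3:**
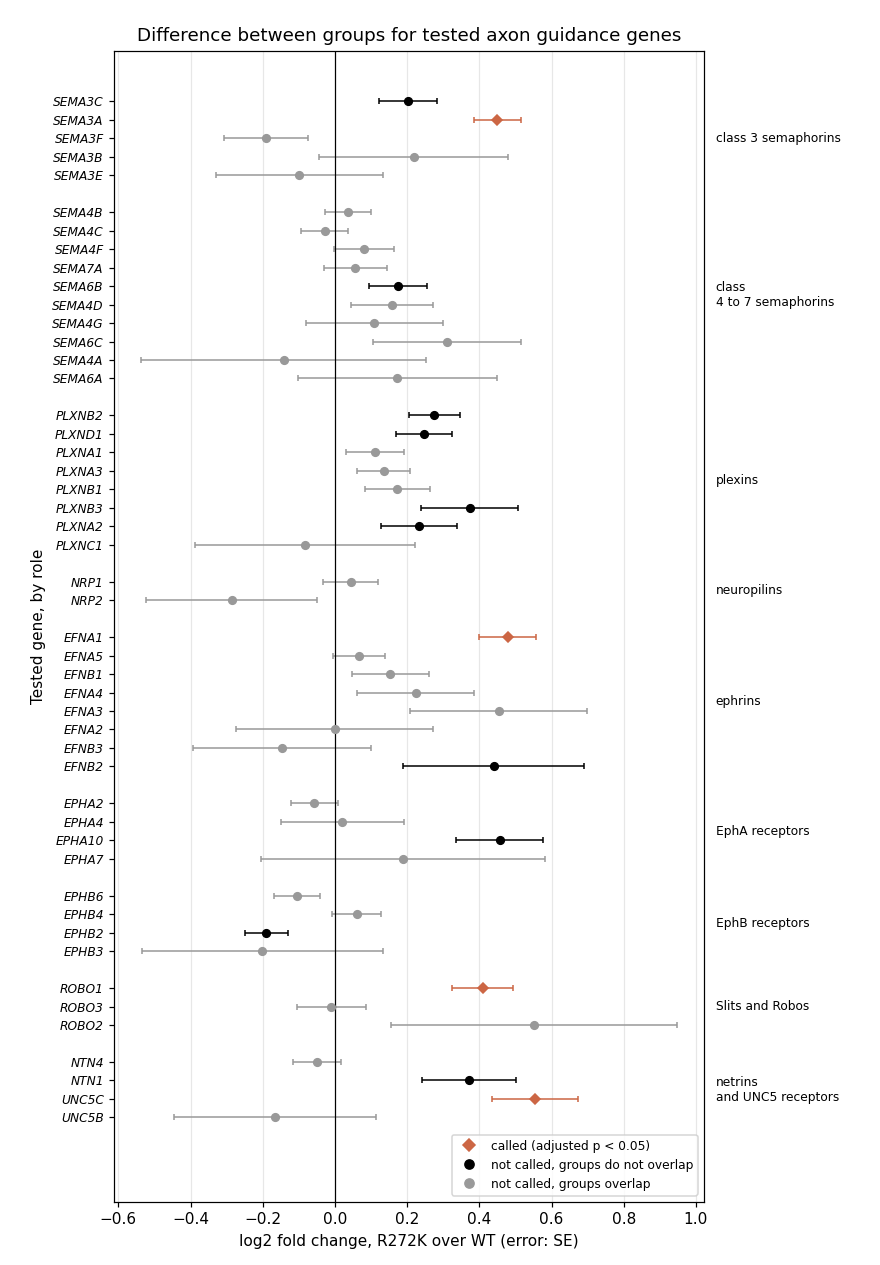
Log2 fold change of R272K over WT for the 48 tested guidance genes, with the SE as error bar; orange diamonds were called, black points were not called but had groups that did not overlap, and grey points had overlapping groups. Called points lie between 0.41 and 0.55, and EPHB2 is the only black point left of 0.

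A further 98 genes that act with these cues were described for comparison: co-receptors, other cues and intracellular effectors. Of the 81 tested, 1 rose, 0 fell and 80 were not called, beside 0.685% of all genes called higher and 0.528% lower. The median log2 fold change of the 81 was 0.03. DESeq2 and limma-voom likewise called 0 lower. An unadjusted p under 0.05 was found for 13 of the 81 in the higher direction and 2 in the lower, against 7.18% and 7.09% of all genes. DPYSL3, a member of the collapsin response mediator family that relays semaphorin signals to the cytoskeleton, rose from 29.9 to 42.7 CPM (log2 fold change 0.51, SE 0.085, edgeR adjusted p = 0.00884). It had 27.4, 31.8 and 30.7 CPM in the WT libraries and 40.1, 42.1 and 45.7 CPM in the R272K libraries, with no overlap. Its call was lost without R272K replicates 2 or 3 (adjusted p = 0.0668 and 0.104) and with limma on log2(TPM + 1) (0.0972). In the other roles the smallest p belonged to genes that were not called. L1CAM, an adhesion molecule that partners with NRP1, stood at 65.5 and 78.7 CPM (0.27, adjusted p = 0.115). ADAM10, a protease that sheds ephrins, had 214 and 253 CPM (0.24, adjusted p = 0.151). The Rac activator DOCK1 had 44.3 and 50.6 CPM (0.19, adjusted p = 0.317). Among the shared cytoskeletal effectors this was PAK2, a kinase activated by Rac and Cdc42, with 139 and 153 CPM (0.14, adjusted p = 0.43).

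Leaving out WT replicate 1 gave 7 guidance genes higher and 1 lower, while 2.94% and 2.42% of 16334 genes were then called in those directions. Beside the 4 genes called on all libraries these were PLXNB2, PLXND1 and EPHA10, higher, and EPHB2, lower. Without WT replicate 3 there were 3 higher (0.741% of all genes), and without R272K replicate 3 there were 2 (0.129%). Without WT replicate 2 or R272K replicates 1 or 2, SEMA3A alone was called (0.244%, 0.159% and 0.134%). With each library's length trend removed, the 4 genes kept their calls and PLXNB2 joined them, with 1.96% of all genes called higher. EFNA1, the shortest of the 4, had a log2 fold change of 0.54 there, and SEMA3A, ROBO1 and UNC5C had 0.39, 0.36 and 0.48. On the authors' TPM values, limma on log2(TPM + 1) called EFNA1 alone (0.289% of all genes), while SEMA3A, ROBO1 and UNC5C had adjusted p of 0.0646, 0.167 and 0.213. DESeq2 called 4 guidance genes higher (0.911% of all genes), with PLXNB2 in place of UNC5C (adjusted p = 0.0537).

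**Figure D4:**
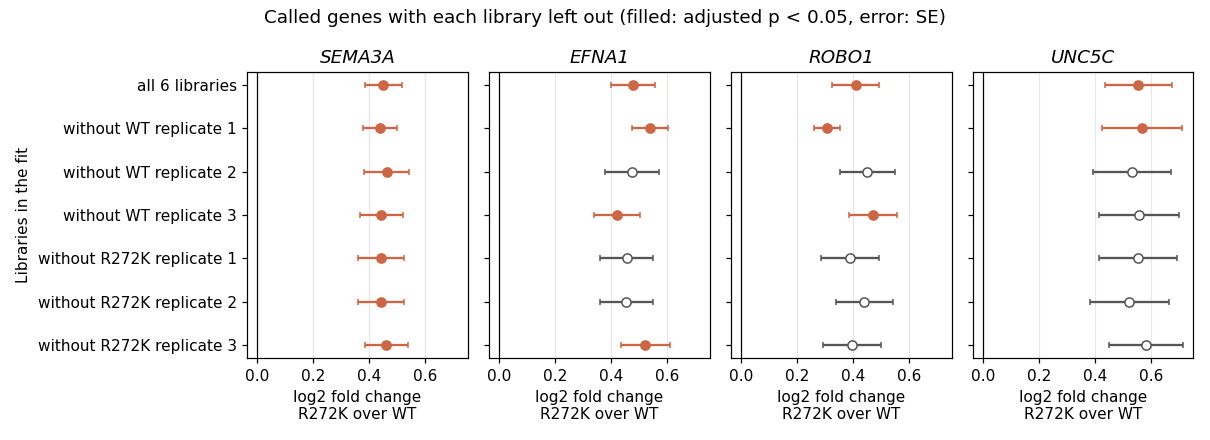
Log2 fold change of R272K over WT for the 4 called guidance genes with all 6 libraries and with each library left out; error bars are the SE and filled points have an adjusted p below 0.05. All estimates lie between 0.31 and 0.58; SEMA3A is filled in every row, and UNC5C only with all libraries and without WT replicate 1.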

How the data were processed

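Per the submitters' processing notes, the build was GRCh38 and the tools named are HTSeq 0.10.0, HISAT2 2.1.0, fastp 0.23.0 and SAMtools. No setting, strand choice or annotation release is given in the sources used here. Raw read counts per symbol were deposited. The authors also deposited TPM values, held here as a score because repeated lines raise the column sums to between 1296446 and 1472074; distinct symbols summed to 1000000. Each of the 60835 symbols was used once.

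Genes passed edgeR's expression filter at a minimum count of 10 and total of 15. TMM factors were applied, and edgeR's quasi-likelihood test (robust) compared the groups over the 6 libraries without covariates. Benjamini-Hochberg adjustment covered all 15911 genes, and those below 0.05 are the called genes. Fold changes are R272K over WT; the SE is the log2 fold change divided by the square root of F. Relative length was recovered from the ratio of count to TPM. On simulated data for this comparison with 15911 genes, 72% of 50 genes changed 1.5-fold were recovered, and 11 of 185 calls were false. The simulated libraries held no length trend and no library that stood apart, so these rates may not hold for the real libraries. The called guidance genes changed by less than 1.5-fold, the smallest change simulated. Libraries of a group differed by more than counting noise, at a chi-square per degree of freedom of 1.80 or more. The value was 10.1 and 13.7 for WT replicate 1 against WT replicates 2 and 3, and 1.80 to 2.74 for the other pairs.

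The members and lists were chosen with earlier results of these data known. Named were all called members, the 3 with the smallest p and the most abundant in each of 9 role groups, untested members, and from the list of related genes the called gene and the smallest p of each other role. Alternatives were RLE, upper-quartile and no scaling factors, no filter, 1 CPM in 3 libraries, DESeq2, limma-voom, each library left out, a replicate block, limma on log2(TPM + 1) or log2(TPM + 0.1), and a lowess offset against gene length. The software was Python 3.11.15 with pandas 2.3.3, numpy 2.4.6 and matplotlib 3.10.9, and R 4.3.3 with DESeq2 1.42.0, limma 3.58.1 and edgeR 4.0.16.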

Additional observations from a re-analysis of the deposited data

How the results depend on the processing

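Across 17 alternatives, or 16 for EPHA7 and ROBO2, to which DESeq2 gave no adjusted p, 23 of the 27 named guidance genes kept their direction. The others were close to 0 or low. With 1 library left out, the log2 fold change of EPHA7 ran from -0.13 (without WT replicate 2) to 0.572, that of NRP1 from -0.0433 (without WT replicate 1) to 0.0916, that of SEMA4B from -0.0243 (without R272K replicate 3) to 0.0728, and that of ROBO3 from -0.0744 to 0.0631 (without WT replicate 1; 0.0586 without R272K replicate 2). ROBO3 had 0.0004 with upper-quartile scaling and 0.0115 and 0.0118 with limma on log2(TPM + 1) and log2(TPM + 0.1). Leaving out 1 library moved the value over 1.5 times or turned it for 15 of the 27, of which 0 were called on all libraries. Besides genes given above and in the report, these were EPHA2 (-0.109 to -0.0222), EPHB4 (0.0195 to 0.0978), ROBO2 (0.339 without WT replicate 2 to 0.99 without WT replicate 3), SEMA3F (-0.288 to -0.0883), SEMA4D (0.0838 to 0.25) and SEMA6C (0.204 to 0.527). The 193 calls among all genes became 474 with no filter, 607 with the length trend removed, 100 and 96 with limma on log2(TPM + 1) and log2(TPM + 0.1), and 55 (without R272K replicate 3) to 875 (without WT replicate 1) with 1 library left out. Guidance genes called higher numbered 1 on either TPM scale and 1 to 7 with 1 library left out, the highest number without WT replicate 1; those called lower numbered 0 to 1. Related genes called higher numbered 0 on either TPM scale, 2 with the length trend removed (DPYSL3 and L1CAM) and 0 to 4 with 1 library left out, 4 being DPYSL3, L1CAM, ADAM10 and MICALL2 without WT replicate 1. Those called lower numbered 1 with the length trend removed and 0 to 1 with 1 library left out; this gene was ABL2, called without WT replicate 1. MICALL2 and ABL2 were named after their values were seen. The causes were not tested. Pairing by replicate number was not seen: deviations of same-numbered libraries correlated at -0.06, -0.01 and -0.01. These values cannot exclude a shared batch. A fit with the replicate block called 262 genes and 4 guidance genes, the same 4 as without it. Depth limits genes with under about 10 counts per library.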
